A study of Homo sapiens with 8 samples.

Results

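A set of 10 genes that mark radial glia or take part in the switch of neural progenitors to glia were followed in oligodendrocyte progenitor cells (OPCs) kept on different culture coatings. They were taken by name as NFIA, NFIB, NFIX, FABP7, SLC1A3, HOPX, S100B, NES, VIM and CLU, and all 10 were found among the 58217 genes of the data. The OPCs were made from the human embryonic stem cell line H9, an established line, by dual SMAD inhibition in the presence of retinoic acid, with the smoothened agonist SAG added later, and carried no SOX10 transgene. They were held for 2 days in OPC medium on Matrigel, the basement membrane extract that served as control, on VN, which is recombinant vitronectin, or on VNP2, an RGD peptide designed from vitronectin and joined to a mussel adhesive protein. Polyadenylated RNA was sequenced in 2 libraries from Matrigel (replicates 2 and 3), 3 from VN and 3 from VNP2. All groups therefore share 1 cell line, 1 medium and 1 time point, and the labels do not say whether replicates were separate cultures, so the p-values measure only the spread between these libraries.

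Radial glia are the stem cells of the developing nervous system. They span the neural tube with fibres filled with the intermediate filaments nestin and vimentin, take up glutamate through the transporter GLAST and carry the fatty acid binding protein FABP7. During development they first make neurons and later glia. The nuclear factor I proteins are transcription factors that work in this change, and NFIA acts with SOX9 at glial genes. OPCs descend from such progenitors, and astrocytes keep several of the same genes, so that none of the 10 marks a single cell type by itself.

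The 8 libraries held between 37997896 and 39429453 estimated read pairs, and 18201 genes had enough counts to be tested. VN replicate 1 stood apart. The median chi-square over genes, which compares 2 libraries of a substrate with sampling noise, was 2.35 and 2.75 for the pairs with this library and between 0.713 and 1.19 for the other pairs. Results that turn on it are given with and without it. Among the markers of the labelled cell type, OLIG1 and OLIG2 were well covered on Matrigel, at means of 1523 and 1703 normalised counts, whereas SOX10 had 20 estimated counts and GPR17 had 12 over all libraries together. A normalised count is the estimated count of a gene corrected for transcript length and library size and brought to the scale of an average library.

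The nestin, vimentin and clusterin transcripts were lower on both vitronectin coatings than on Matrigel, NFIA was higher on both, and FABP7 and SLC1A3 were higher on VNP2 than on either of the other coatings. Compared with Matrigel, VN raised NFIA and NFIB and lowered NES, VIM and CLU, which makes 5 called genes of 9 tested. VNP2 raised NFIA, NFIX, FABP7 and SLC1A3 and lowered NES, VIM and CLU, which makes 7 of 9. Between the vitronectin coatings, FABP7, SLC1A3 and VIM were higher on VNP2 and 0 were lower in edgeR, where CLU had an unadjusted p under 0.05. DESeq2 called CLU lower and limma called 0. A gene was called when its adjusted p in edgeR's quasi-likelihood test was under 0.05. The samples are bulk cultures, in which fewer cells of a type and less RNA per cell cannot be told apart. Both comparisons with Matrigel rest on the same 2 Matrigel libraries and are not independent of each other.

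These counts are set beside the background of all genes. The members were chosen with earlier results of these data known, so a higher share among them is not evidence about the set. In VN against Matrigel 15.2% of the tested genes were called (5.81% higher and 9.41% lower). In VNP2 against Matrigel it was 16.6% (7.45% higher and 9.13% lower), and in VNP2 against VN 5.18% (3.07% higher and 2.1% lower). Without VN replicate 1 the shares were 21.6%, 20.2% and 10.9% in the same order, and 5, 8 and 3 members were called. A test across all 3 substrates called 19.3% of the genes and 8 of the 9 tested members, S100B being the exception. The libraries of the groups did not overlap for 7 of 9 members in VN against Matrigel, where this held for 44.4% of all genes, for 8 in VNP2 against Matrigel, where it held for 48.1%, and for 5 in VNP2 against VN, where it held for 23.5%. The median log2 fold change of the tested members was -0.02, 0.28 and -0.00 in the same order, beside 0.01, 0.00 and -0.00 for all genes. HOPX did not pass the filter on low counts and is in none of these numbers.

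**Figure D1:**
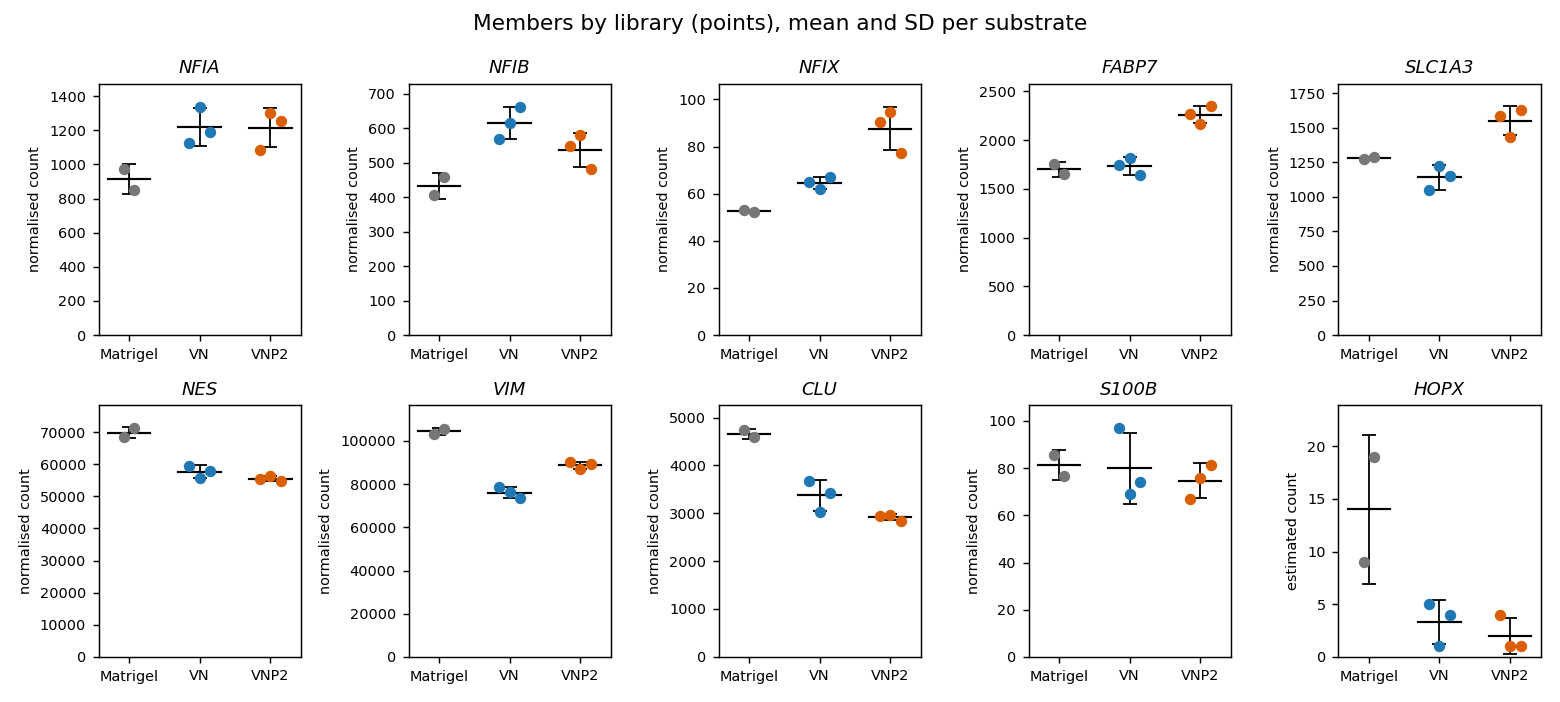
Normalised counts of the 9 tested genes and estimated counts of HOPX (y axis, linear from 0) in each library (points) on Matrigel, VN and VNP2, with the mean (line) and SD (bars). FABP7 lies between 2167 and 2347 on VNP2 and between 1638 and 1820 elsewhere, and NES, VIM and CLU are highest on Matrigel.

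The members spanned a wide range of levels. In TPM, Salmon's transcript abundance scaled to a fixed total per library, which corrects for length and so allows genes to be compared, the mean over 8 libraries was 2206 for VIM, 408 for NES, 204 for CLU, 153 for FABP7, 17.7 for SLC1A3, 8.59 for NFIA, 4.31 for NFIB, 3.54 for S100B, 0.703 for NFIX and 0.326 for HOPX. VIM stood at the 99.8th percentile of the tested genes and NES at the 98.3rd, so the filament genes were among the most abundant transcripts of these cells. NFIA stood at the 44.1st and NFIX at the 12.7th percentile. The order was the same in each library for VIM, NES, SLC1A3 and NFIA. Neighbours that changed places were CLU and FABP7, with FABP7 ahead in VNP2 replicates 1 and 3, NFIB and S100B, with S100B ahead in Matrigel replicate 2, and NFIX and HOPX, with HOPX ahead on Matrigel.

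**Figure D2:**
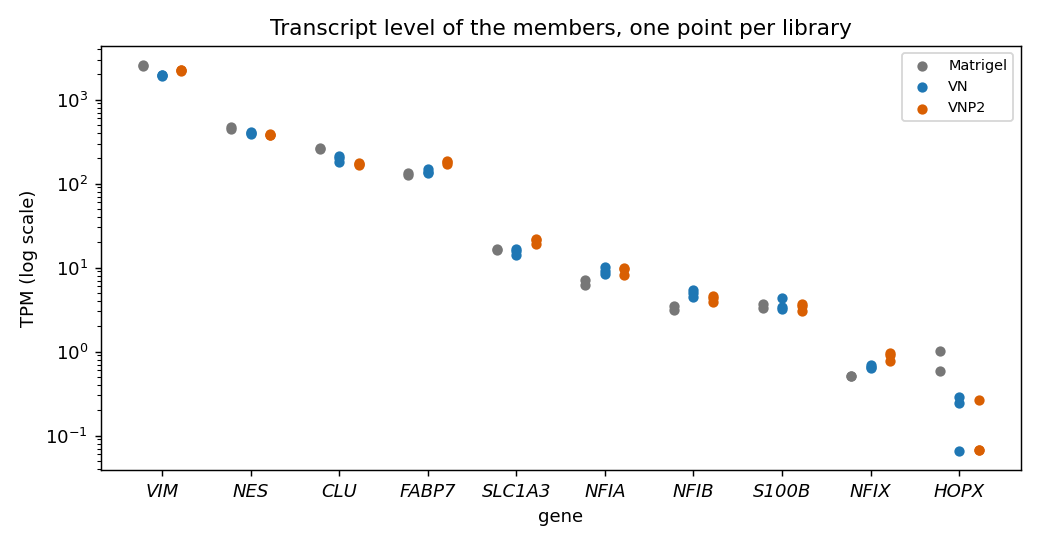
TPM of the 10 genes (y axis, log scale) with 1 point per library, coloured by substrate and ordered by the mean over libraries. VIM, at a mean of 2206 TPM, and HOPX, at 0.326 TPM, mark the ends of the range.

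The 3 NFI genes encode related transcription factors that bind DNA as dimers. NFIA had 976 and 852 normalised counts in the Matrigel libraries, 1124, 1339 and 1193 on VN, and 1087, 1303 and 1256 on VNP2. Every library on either vitronectin coating was above both Matrigel libraries. The log2 fold change was 0.42 (SE 0.10, adjusted p = 0.0191) on VN and 0.41 (SE 0.10, adjusted p = 0.0178) on VNP2, a rise of 33.4% and 33.0%, and VNP2 differed from VN by -0.00 (SE 0.09, adjusted p = 0.986). The call on VN was lost without Matrigel replicate 3 (log2 fold change 0.32, adjusted p = 0.175) or VN replicate 2 (0.34, adjusted p = 0.0563). The call on VNP2 was lost without Matrigel replicate 3 (0.32, adjusted p = 0.169), VNP2 replicate 2 (0.36, adjusted p = 0.0573) or VNP2 replicate 3 (0.39, adjusted p = 0.0564). The direction was upward in each of these fits.

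NFIB had 406 and 458 normalised counts on Matrigel, 568, 616 and 661 in the VN libraries, and 549, 579 and 483 on VNP2. All 6 libraries from vitronectin coatings again exceeded both from Matrigel, and VNP2 lay between the other coatings in its mean. On VN the log2 fold change was 0.51 (SE 0.10, adjusted p = 0.00802), a rise of 42.3% that lost its call without Matrigel replicate 2 (0.42, adjusted p = 0.0885). On VNP2 it was 0.31 (SE 0.10, adjusted p = 0.0642), which did not pass. This value passed with no filter on low counts (adjusted p = 0.0484), with at least 50 counts asked for in every library (adjusted p = 0.0487), without VN replicate 1 (adjusted p = 0.0484) and without VNP2 replicate 3 (0.39, adjusted p = 0.0368). The difference between VNP2 and VN, -0.20 (SE 0.09), did not pass either (adjusted p = 0.255), so the data do not separate these coatings for NFIB.

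NFIX was the scarcest of the tested members, with 42 to 101 estimated counts in a library. Its normalised counts were 53.0 and 52.4 on Matrigel, 65.1, 61.9 and 67.0 in the VN libraries, and 90.4, 94.8 and 77.3 on VNP2. The groups stood in the order Matrigel, VN, VNP2 without any overlap between libraries. Only the ends of this order were separated by the test, with a log2 fold change of 0.73 (SE 0.18, adjusted p = 0.0164) between VNP2 and Matrigel, a rise of 66.1%. VN differed from Matrigel by 0.29 (SE 0.18, adjusted p = 0.302) and VNP2 from VN by 0.44 (SE 0.15, adjusted p = 0.132). The call did not hold without Matrigel replicate 2 (adjusted p = 0.0829), Matrigel replicate 3 (0.0998) or VNP2 replicate 2 (0.0549), nor in DESeq2 (adjusted p = 0.0576). NFIC, the remaining gene of the family, was at -0.04 (VN) and -0.10 (VNP2) on the log2 scale and was not called.

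Most of the NFIA signal came from a full-length form. NFIA-207, with 11 exons at chr1:61082308-61462793 (plus strand, GRCh38, GENCODE v29), held 63.6% of the TPM of the gene on average, and NFIA-201, a form of 4 exons that starts further downstream at 61404076, held 24.3%. NFIA-207 measured 4.26 and 4.36 TPM on Matrigel, 5.45, 6.27 and 6.16 in the VN libraries, and 4.98, 5.91 and 6.13 on VNP2. NFIA-201 measured 1.65 and 1.17 TPM on Matrigel, 2.07, 2.99 and 2.51 in the VN libraries, and 1.98, 2.52 and 2.03 on VNP2. Both forms were thus higher in each library from a vitronectin coating than in either from Matrigel. NFIB-205 (51.2% of the TPM of NFIB) ranged from 1.47 to 1.73 TPM on Matrigel, while VN gave 2.40 to 2.60 and VNP2 1.86 to 2.83. NFIB-210 (17.2%) had 0 TPM in VNP2 replicate 1 and 0.562 to 1.31 in the other libraries. For NFIX, NFIX-202 held 60.7% and NFIX-203 30.7%, and NFIX-209 was assigned reads in Matrigel replicate 2 alone (48.1% of that library's NFIX). Estimates of single forms at such low levels are uncertain.

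NFI dimers bind a palindrome with arms of TTGGC, and the single arm was searched for here with 1 more base as TTGGCA. The short stretches below are shown because NFIB and SLC1A3 were the members in which this half-site occurred, in either orientation, in the 250 bases before an annotated RefSeq start (GRCh38.p14). The capitals mark the half-site.
SLC1A3, chr5:36606458-36606485, plus strand: tgcttctggtgTGCCAAgattaatcaat
NFIB, chr9:14306997-14307024, minus strand: ttgatttgtttTTGGCAtactacgtgca
NFIB, chr9:14316276-14316303, minus strand: agctggtaaacTTGGCAagctcgcctca
Windows were available for 8 members, 26 in all because several genes have more than 1 start. The half-site was present in 3 of the 26, and in 10.8% of all 35116 windows. The full palindrome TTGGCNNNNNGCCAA was in none of the 26 and in 0.0285% of all. In GENCODE v29, the windows of the SLC1A3 stretch and of the first NFIB stretch overlap exons of their own gene. SLC1A3-201 starts at 36606355 and NFIB-205, on the minus strand, at 14313985. The stretches at 36606458 and 14306997 therefore lie downstream of the starts of the forms with the largest share of TPM. The NFIB stretch at 14316276 lies upstream of the NFIB-205 start. The letters describe these windows and were not tested for binding.

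FABP7 and SLC1A3 are classical radial glia genes, the first for a brain fatty acid binding protein and the second for the glutamate transporter GLAST. FABP7 had 1754 and 1648 normalised counts on Matrigel, 1748, 1820 and 1638 in the VN libraries, and 2273, 2167 and 2347 on VNP2. The VNP2 libraries stood above all others, whereas those from Matrigel and VN overlapped. The log2 fold change was 0.41 (SE 0.06, adjusted p = 0.00096) for VNP2 against Matrigel and 0.38 (SE 0.05, adjusted p = 0.00221) for VNP2 against VN, rises of 33.0% and 30.4%. VN differed from Matrigel by 0.03 (SE 0.06, adjusted p = 0.796). Both calls on VNP2 were made in each of 16 alternatives, among them the fit without VN replicate 1. FABP7-202, with 4 exons at chr6:122779475-122784074, carried 99.5% of the TPM of the gene.

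SLC1A3 had 1272 and 1286 normalised counts on Matrigel, 1047, 1225 and 1148 in the VN libraries, and 1585, 1434 and 1631 on VNP2. VN was the lowest and VNP2 the highest coating, with no overlap between any of the groups. VNP2 exceeded VN by a log2 fold change of 0.44 (SE 0.07, adjusted p = 0.00396), or 35.9%, and this was called in each of 16 alternatives. VNP2 exceeded Matrigel by 0.28 (SE 0.08, adjusted p = 0.0312), or 21.1%. That second call was lost without Matrigel replicate 2 (adjusted p = 0.157), Matrigel replicate 3 (0.14), VNP2 replicate 1 (0.0837) or VNP2 replicate 3 (0.0995). VN differed from Matrigel by -0.17 (SE 0.08, adjusted p = 0.174). SLC1A3-201, with 10 exons at chr5:36606355-36688334, held 84.0% of the TPM of the gene and ranged from 11.995 to 13.829 TPM over the Matrigel and VN libraries and from 16.7 to 18.4 on VNP2.

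Among the relatives of the members, the calls went downward. Of 13 tested close relatives of the members, 5 fell on VN, 5 fell on VNP2 and 0 rose on either, and 1 was lower on VNP2 than on VN. DESeq2 and limma also called 0 higher, and at an unadjusted p under 0.05 edgeR had 1 higher on VN (SLC1A2) and 0 on VNP2. FABP5 fell by 0.22 on VN (adjusted p = 0.00638) and by 0.32 on VNP2 (adjusted p = 0.000439). SLC1A5, a neutral amino acid transporter of the SLC1 family, fell by 0.40 and 0.34. SLC1A2, the other main glial glutamate transporter, had log2 fold changes of 0.31 and 0.10 and was not called.

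**Figure D3:**
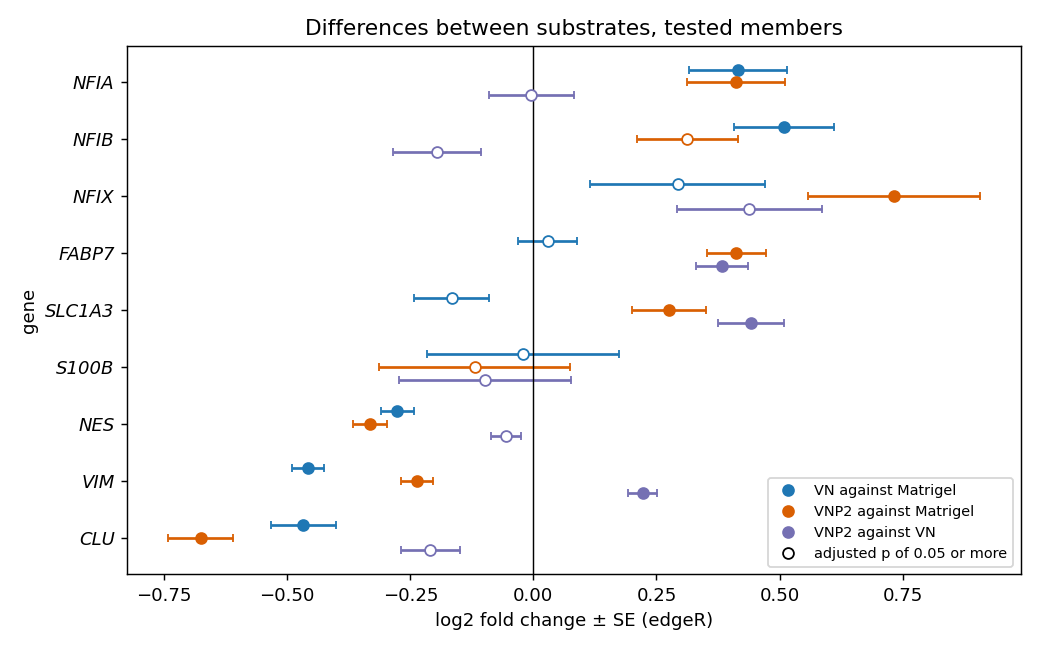
Log2 fold change (x axis) with its SE for the 9 tested genes in VN against Matrigel, VNP2 against Matrigel and VNP2 against VN, with open points where the adjusted p was 0.05 or more. FABP7 (0.41 and 0.38) and SLC1A3 (0.28 and 0.44) rise in both comparisons of VNP2, and NES, VIM and CLU lie below 0 in both comparisons with Matrigel.

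NES and VIM encode nestin and vimentin, the intermediate filament proteins that assemble together in neural progenitors. NES had 68570 and 71150 normalised counts on Matrigel, 59610, 55730 and 57780 in the VN libraries, and 55530, 56280 and 54680 on VNP2. Both Matrigel libraries lay above all of the others. NES fell by 0.28 on the log2 scale (SE 0.034, adjusted p = 0.00044) on VN and by 0.33 (SE 0.034, adjusted p = 8.27e-05) on VNP2. The count decreased by 17.4% and decreased by 20.6%. The vitronectin coatings differed from each other by -0.06 (SE 0.031, adjusted p = 0.356).

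VIM had 103200 and 105700 normalised counts on Matrigel, 78590, 76150 and 73490 in the VN libraries, and 90050, 86960 and 89190 on VNP2. The 3 coatings were separated without overlap, with VNP2 between the other two. VIM fell by 0.46 (SE 0.033, adjusted p = 1.03e-05) on VN and by 0.24 (SE 0.033, adjusted p = 0.000731) on VNP2. VNP2 exceeded VN by 0.22 (SE 0.030, adjusted p = 0.00181), or 16.6%. These VIM calls and both NES calls against Matrigel were made in each of 16 alternatives. The NES transcripts came from 1 annotated form, NES-201 at chr1:156668763-156677397 on the minus strand, and 97.5% of the VIM transcripts came from VIM-201 at chr10:17229278-17237593 on the plus strand.

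Because NES and VIM were both lower on the vitronectin coatings, the 250 bases before their RefSeq starts (GRCh38.p14) are shown in full. The capitals mark the GC box GGGCGG, the motif bound by Sp1, in either orientation.
NES, chr1:156677408-156677657, minus strand: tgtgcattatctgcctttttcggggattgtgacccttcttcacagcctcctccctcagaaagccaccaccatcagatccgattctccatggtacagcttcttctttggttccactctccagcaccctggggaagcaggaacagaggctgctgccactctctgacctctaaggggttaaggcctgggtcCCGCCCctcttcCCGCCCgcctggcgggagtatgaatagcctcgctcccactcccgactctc
VIM, chr10:17227991-17228240, plus strand: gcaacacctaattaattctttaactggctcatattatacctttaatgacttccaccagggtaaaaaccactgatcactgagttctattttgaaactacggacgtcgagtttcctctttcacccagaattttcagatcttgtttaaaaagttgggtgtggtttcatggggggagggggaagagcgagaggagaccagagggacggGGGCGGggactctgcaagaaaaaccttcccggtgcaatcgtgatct
The NES window had a GC content of 58.0% and the VIM window 46.0%. The GC box was in 14 of the 26 windows of members and in 42.6% of all windows. The motifs TGANTCA (AP-1) and TGGGAA (RBPJ, the DNA-binding partner of Notch) occurred in neither window, against 6.57% and 20.8% of all windows. The RefSeq start of VIM lies upstream of the start of VIM-201 in GENCODE v29, so the VIM window is not the sequence next to the form that held most of the reads.

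Other intermediate filament genes moved in both directions. Of 10 tested filament genes outside the members, 2 rose and 4 fell on VN, 3 rose and 4 fell on VNP2, and 4 were higher on VNP2 than on VN. None was lower there in edgeR, DESeq2 or limma, nor at an unadjusted p under 0.05. The genes that fell on both coatings were KRT18 (-1.14 and -0.90), KRT8 (-0.83 and -0.66), SYNM (-0.59 and -0.68) and LMNA (-0.44 and -0.50). KRT8 and KRT18 form the keratin pair of simple epithelia, SYNM encodes synemin, which joins vimentin filaments, and LMNA encodes a protein of the nuclear lamina. The genes that rose against Matrigel encode filament proteins of neurons. Those higher on VNP2 than on VN were NEFM, NEFL, INA and also KRT8, by 0.17 (adjusted p = 0.0269). NEFM rose by 0.13 on VN and 0.69 on VNP2, INA by 0.22 and 0.43, and NEFL by 0.42 on VNP2, where its value on VN was -0.01. GFAP, the filament of astrocytes, had 42 estimated counts in all 8 libraries together and DES had 28.

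**Figure D4:**
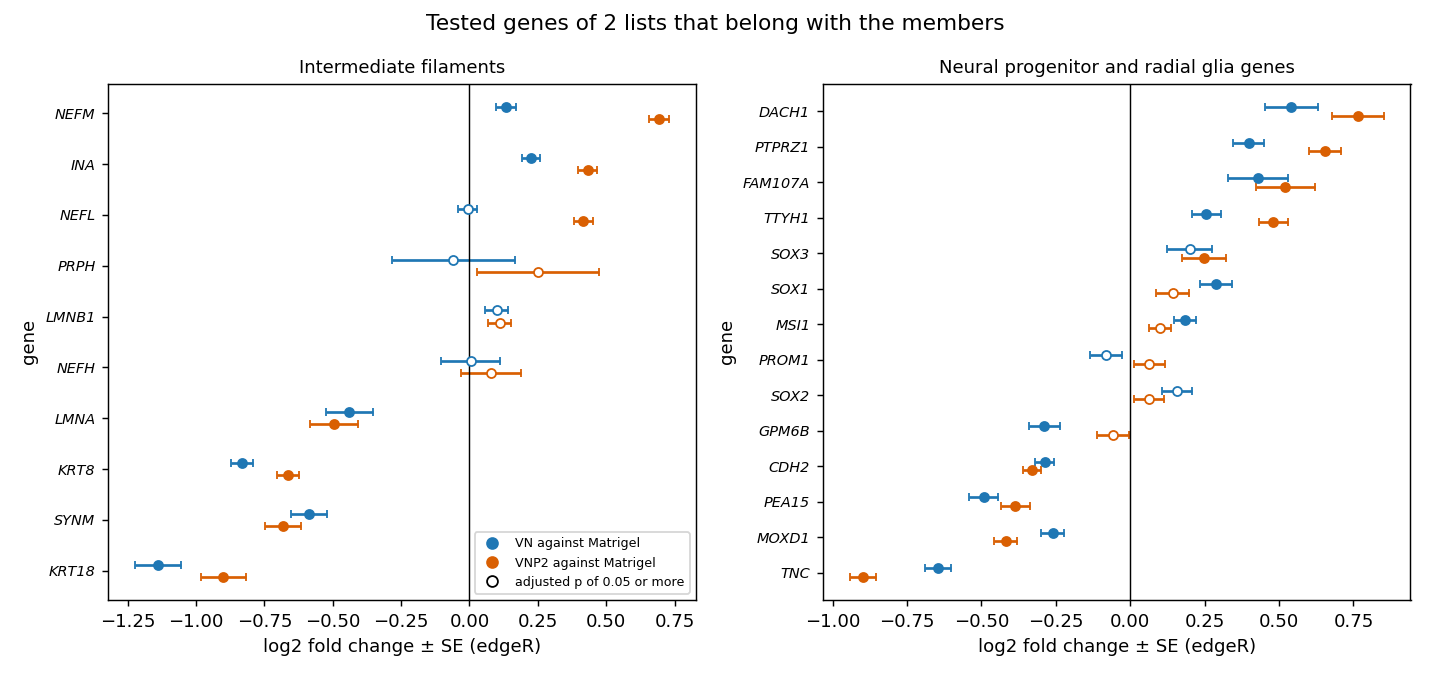
Log2 fold change against Matrigel (x axis) with its SE on VN and VNP2 for the tested intermediate filament genes (left) and neural progenitor and radial glia genes (right), with open points where the adjusted p was 0.05 or more. KRT18 (-1.14 and -0.90) and TNC (-0.65 and -0.90) fell most, and NEFM (0.69) and DACH1 (0.76) rose most on VNP2.

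CLU encodes clusterin, a secreted chaperone that astrocytes make in quantity. It had 4738 and 4588 normalised counts on Matrigel, 3673, 3035 and 3416 in the VN libraries, and 2948, 2961 and 2849 on VNP2. The groups did not overlap, and the level stepped down from Matrigel to VN to VNP2. CLU fell by 0.47 (SE 0.066, adjusted p = 0.00107) on VN and by 0.68 (SE 0.066, adjusted p = 6.06e-05) on VNP2 on the log2 scale. The count decreased by 27.6% on VN and decreased by 37.4% on VNP2, and both calls were made in each of 16 alternatives. The step from VN to VNP2 was -0.21 (SE 0.061, adjusted p = 0.0835). It passed in only 3 of 16 alternatives. These were the fit without VN replicate 2 (-0.28, adjusted p = 0.0114), the fit without the filter on low counts (adjusted p = 0.0195) and DESeq2 (adjusted p = 0.022). The step ranged from -0.28 to -0.14 with a library left out and from -0.21 to -0.13 in the other alternatives.

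The form of CLU behind these counts was not resolved. Salmon gave 35.9% of the CLU TPM to CLU-204, an annotated fragment of 303 bases, 25.1% to CLU-209 of 850 bases and 13.04% to CLU-202 of 2098 bases with 9 exons. CLU-208, of 520 bases, took 12.9% in VN replicate 1 and 4.66% and 4.74% in the other VN libraries. The TPM of the gene therefore depends on how reads were shared among short forms, which bears on its place beside FABP7 in the order of levels. The length correction behind its normalised counts and log2 fold changes depends on the same shares. Without that correction the log2 fold change on VN was -0.54, beside -0.47 with it.

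S100B encodes a calcium-binding protein of astrocytes and of part of the oligodendrocyte lineage. It had 85.7 and 76.7 normalised counts on Matrigel, 97.1, 68.9 and 74.0 in the VN libraries, and 66.9, 75.8 and 81.5 on VNP2, and the groups overlapped in all 3 comparisons. Its log2 fold change was -0.02 (SE 0.19, adjusted p = 0.958) on VN, -0.12 (SE 0.19, adjusted p = 0.747) on VNP2 and -0.10 (SE 0.17, adjusted p = 0.81) between them. With 68 to 96 estimated counts in a library, its standard errors were the widest of the tested members, and the lack of a call does not show that the coatings are alike. Of 6 other S100 genes tested, S100A10, S100A13 and S100A16 fell on both coatings, and S100A4, S100A6 and S100A11 were not called. S100A16 fell by 1.62 on VN and 1.44 on VNP2, and S100A10 fell by 0.48 and 1.11 and was lower on VNP2 than on VN by -0.64 (adjusted p = 0.00039). S100A1 had 6 estimated counts in all.

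HOPX, a marker of outer radial glia, was near the limit of detection. It had 9 and 19 estimated counts on Matrigel, 5, 1 and 4 in the VN libraries, and 4, 1 and 1 on VNP2, or 44 in all. Both Matrigel libraries were above the others. The gene could be tested only when no filter was applied, which gave a log2 fold change of -2.06 (adjusted p = 0.0492) on VN and -2.60 (adjusted p = 0.0164) on VNP2. These values rest on the 9 and 19 estimated counts of the Matrigel libraries. The counts were also assigned to different forms from library to library, all to HOPX-210 in Matrigel replicate 2 and all to HOPX-201 in Matrigel replicate 3.

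The regulators that act with the NFI factors moved in part. Counts over such lists are small, and leaving out 1 library moved between 6 and 16 of the 66 counts over all lists, comparisons and directions beyond 1.5 times, or to or from 0. Of 12 tested gliogenic regulators outside the members, 3 rose and 2 fell on VN, 4 rose and 2 fell on VNP2, and 2 were higher and 1 lower on VNP2 than on VN. SOX9, the partner of NFIA, rose by 0.46 (SE 0.05, adjusted p = 0.00031) on VN and by 0.37 (SE 0.05, adjusted p = 0.000989) on VNP2. HES5, a target of Notch, rose by 0.62 on VN (adjusted p = 0.000681), and was lower on VNP2 than on VN by -0.37 (adjusted p = 0.0143). In VNP2 against Matrigel HES5 was at 0.25 and was not called (adjusted p = 0.0657). Genes of the cytokine pathway that drives astrocyte genes went in both directions. STAT3, its transcription factor, fell by 0.41 and 0.51, and the shared receptor subunit IL6ST fell by 0.37 and 0.35, values that rest on the matched transcripts, which hold 0.247 of the authors' normalized count of this gene. LIFR and CNTFR, other receptor subunits of this pathway, rose by 0.37 and 0.26 on VNP2 and were higher there than on VN by 0.23 and 0.36. Without VN replicate 1, 5 regulators were higher on VN than on Matrigel, and 3 were higher and 2 lower on VNP2 than on VN.

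Of 3 genes known as joint targets of NFIA and SOX9, APCDD1 rose on VNP2 by 0.73 (SE 0.12, adjusted p = 0.0024) and was higher on VNP2 than on VN by 0.66 (SE 0.11, adjusted p = 0.0058). On VN its log2 fold change was 0.07 (adjusted p = 0.745). ZCCHC24 was at 0.05 on VNP2 and -0.00 on VN and was not called. MMD2 had 11 estimated counts in all and was not tested.

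Other neural progenitor and radial glia genes also split. Of 14 tested, 6 rose and 5 fell on VN, 5 rose and 4 fell on VNP2, and 3 were higher and 2 lower on VNP2 than on VN. PTPRZ1, a receptor phosphatase of outer radial glia and OPCs, rose by 0.40 and 0.65 (0.788 of the authors' count was matched), and DACH1, a nuclear factor of progenitors, rose by 0.54 and 0.76. TNC, the matrix glycoprotein tenascin C, fell by 0.65 and 0.90 and was lower on VNP2 than on VN by -0.25 (adjusted p = 0.00491). PEA15 fell by 0.49 and 0.39. GPM6B, a membrane proteolipid, fell by 0.29 on VN, and on VNP2 it was at -0.06 against Matrigel and 0.23 above VN (adjusted p = 0.019). PAX6 had 36 estimated counts in all.

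The astrocyte markers differed widely in level. GFAP had 42 estimated counts in all, AQP4 27 and GJB6 0, and ALDH1L1 passed the filter with 75, whereas GJA1 and GLUL, which progenitors also express, stood at means of 193 and 192 TPM on Matrigel. Of 11 tested astrocyte markers, 0 rose and 2 fell on VN, 0 rose and 3 fell on VNP2, and 1 was higher on VNP2 than on VN (2 without VN replicate 1). DESeq2 and limma also called 0 higher against Matrigel, and at an unadjusted p under 0.05 edgeR had 1 on VN and 2 on VNP2. In VNP2 against VN edgeR called 0 lower, but SLC1A2, FGFR3 and APOE were lower at an unadjusted p under 0.05. DESeq2 called 1 lower there and limma 0. The median log2 fold change of the list in VNP2 against VN was -0.16. GJA1, the gap junction protein connexin 43, fell by 0.82 and 0.59 and was 0.23 higher on VNP2 than on VN. FGFR3 fell by 0.20 and 0.36, and APOE fell by 0.61 on VNP2. The summed TPM of the list was 447 to 452 on Matrigel, 373 to 390 on VN and 401 to 419 on VNP2. That order rests on GJA1: without it, a choice made after the values were seen, the sums were 254 to 259, 257 to 279 and 266 to 280 TPM.

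Markers of OPCs and of other cell types also differed between the coatings, and their part in these results was not tested. Of 8 tested OPC markers, 3 rose on VN and 6 on VNP2, with 1 higher on VNP2 than on VN. LHFPL3 rose by 0.89 and 1.02, OLIG1 by 0.30 and 0.41 and OLIG2 by 0.31 and 0.23, CSPG4 by 0.66 on VNP2, and NKX2-2 was 0.26 higher on VNP2 than on VN. The summed TPM of the list was 110 to 111 on Matrigel, 140 to 142 on VN and 142 to 150 on VNP2, lowest on Matrigel as for NFIA. No OPC or neuron marker fell against Matrigel in edgeR, DESeq2 or limma, nor at an unadjusted p under 0.05, but 1 neuron marker fell on VN without VN replicate 1. Of 8 neuron markers, 5 rose on each coating, and 2 were higher and 1 lower on VNP2 than on VN. ELAVL4 rose by 0.60 and 0.79, DCX by 0.53 and 0.72 and STMN2 by 0.51 and 0.72, MAP2 was 0.17 lower on VNP2 than on VN (log2 fold change -0.17), and the sum was 925 to 960, 1055 to 1098 and 1103 to 1121 TPM.

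Some ependymal markers were higher on VNP2, as FABP7, SLC1A3 and genes of other lists were, and a link between them was not tested. Of 7 tested, 1 fell on VN (PIFO, by 0.25, a call lost without VN replicate 1), 3 rose on VNP2, and 4 were higher on VNP2 than on VN. FOXJ1, the main transcription factor of motile cilia, rose by 0.64 on VNP2 and was 0.55 higher there than on VN. RSPH1, a protein of the ciliary radial spoke, rose by 0.40 and was 0.49 higher than on VN, and TEKT1 was 0.76 higher than on VN. GMNC, with only 22 to 49 estimated counts in a library, rose by 99.8% (SE 0.265 on the log2 scale, adjusted p = 0.0269). CCNO and DNAI1 were not called in any comparison, and VNP2 differed from VN by -0.36 for CCNO and 0.10 for DNAI1. The summed TPM was 84.5 to 85.1 on Matrigel, 87.6 to 92.8 on VN and 121 to 129 on VNP2. FOXJ1 alone had means of 47.5, 53.7 and 77.8 TPM in the same order. MCIDAS had 20 estimated counts in all.

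The mesenchymal markers changed in opposite directions. Of 10 tested, 3 rose and 4 fell on VN, 5 rose and 4 fell on VNP2, and 2 were higher and 1 lower on VNP2 than on VN (3 lower without VN replicate 1). TAGLN, an actin-binding protein of smooth muscle, fell by 2.11 on VN and fell by 2.29 on VNP2, ACTA2 by 0.96 and 0.83, and COL1A1 by 0.53 and 1.41, and COL1A1 was lower on VNP2 than on VN by -0.87. LUM rose by 0.58 on VN and by 0.31 on VNP2 (adjusted p = 0.0491). COL3A1 and PDGFRB were 0.17 and 0.40 higher on VNP2 than on VN. The summed TPM was 1027 to 1059 on Matrigel, 717 to 756 on VN and 631 to 656 on VNP2. That order rests on TAGLN: without it, again a choice made after the values were seen, the sums were 542 to 549, 595 to 631 and 518 to 552 TPM. Of 5 tested neural crest and Schwann lineage markers, 0 were called on VN in edgeR (3 had an unadjusted p under 0.05, and DESeq2 called 0 and limma 2), 1 rose and 1 fell on VNP2, and 1 was lower on VNP2 than on VN. TFAP2A rose by 99.9% on VNP2, and MITF fell by 0.53 and was lower than on VN by -0.90. FOXD3 had 28 estimated counts in all. A few genes stand in more than 1 list, namely GFAP, SLC1A2, SOX10 and NFIC.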

How the data were processed

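The authors trimmed reads with Trim Galore and ran Salmon on the GENCODE v32 transcripts of GRCh38.p13. The deposited estimated counts and the deposited TPM are Salmon's values per transcript, and the deposited effective lengths served to correct for length. The authors also deposited normalized counts per gene, a signal scaled by DESeq2 (version 1.27.12 per the labels) after tximport, which was used in 1 alternative and as a check. No genome position is in the files, so transcripts were matched by identifier to GENCODE v29: 205225 of 226608 matched, with 98.79 to 98.88% of the estimated counts. NFIA kept 0.906 of the authors' value because of unmatched transcripts, and the other tested members kept all of it. Of the list genes, IL6ST, JAK1, PTPRZ1 and ELAVL4 kept 0.247, 0.728, 0.788 and 0.855.

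Estimated counts were summed per gene, rounded, and fitted in edgeR 4.0.16 (R 4.3.3) with length offsets, TMM, filterByExpr (minimum count 10, total 15), all 8 libraries and no block, by a two-sided quasi-likelihood test with Benjamini-Hochberg adjustment over 18201 genes. SE is the log2 fold change divided by the root of F. Alternatives were DESeq2 1.42.0, RLE, no length offsets, no filter, 50 counts in every library, a replicate block, limma 3.58.1 on the authors' normalized counts after log2 (pseudocount 1), the libraries of the pair alone, and each library left out. A count of 100 has a sampling error of its square root.

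The members and lists were chosen with earlier results of these data known. All members are named, and from each list up to 3 called genes of largest change per comparison and the markers too low to test. The others named (NFIC, SLC1A2, ZCCHC24, IL6ST, GLUL, CCNO, DNAI1, the S100 genes other than S100A10 and S100A16, FABP5, LMNA and the values beside a named gene) were added for context after their values were seen. The lists are gliogenic regulators, NFIA and SOX9 targets, neural progenitor and radial glia genes, close relatives of the members, intermediate filaments, and markers of astrocytes, OPCs, neurons, ependymal cells, mesenchyme and neural crest. Promoter windows are RefSeq's (GRCh38.p14). Scripts were tested on simulated data.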

Additional observations from a re-analysis of the deposited data

How the results depend on the processing

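No member changed direction among called values. Over the alternatives that kept all libraries, 208 of the results of the 9 tested members kept their side of the threshold, 4 gained a call and 1 lost it, and with a library left out 200 kept it, 3 gained and 13 lost a call. With a library left out, members called ranged from 4 to 5 in VN against Matrigel, 4 to 8 in VNP2 against Matrigel (4 without Matrigel replicate 3), 3 to 4 in VNP2 against VN and 5 to 8 across all 3 substrates (5 without Matrigel replicate 2). With no filter they were 6, 9, 4 and 9, with HOPX among those tested. In the same fits genes called ranged from 1184 (without Matrigel replicate 3) to 3911 (without VN replicate 1) in VN against Matrigel, from 1611 to 3653 (the same libraries) in VNP2 against Matrigel, from 544 (without VNP2 replicate 1) to 1979 (without VN replicate 1) in VNP2 against VN, and from 1881 to 4981 across all 3. Leaving out a Matrigel library leaves 1 there, which is assumed to vary like the other groups.

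Deviations from the group means correlated between -0.122 and 0.061 over pairs of libraries with the same replicate number. Pairs with different numbers were not compared, so these values do not settle whether replicates were paired. With a replicate block, 3405, 3155 and 1167 genes were called in the 3 pairwise comparisons and 3990 across all 3, and 5, 7, 3 and 7 members. Without the block 2770, 3017, 942 and 3517 genes were called in the same order. NFIX could not be tested at 50 counts in every library, and HOPX only without a filter. At this depth NFIX, S100B and HOPX have wide errors.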
